A study of Mus musculus with 2 samples.

Results

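The 9 genes Tbx21, Eomes, Ahr, Pax5, Ebf1, Spi1, Cebpa, Cebpb and Lef1 encode transcription factors best known for directing immune lineages other than group 2 innate lymphoid cells (ILC2s). They were taken by symbol from the GENCODE annotation of the mouse genome GRCm38, where they are 9 of 21938 protein-coding genes on assembled chromosomes, and all 9 were found. For each, every listed peak of H3K4me3 that overlapped the gene body or lay within 1000 bp of an annotated transcript start was collected. The files used here hold 1 library of lung ILC2s from 8-week-old offspring of control mothers (F1PBS) and 1 library from offspring of asthmatic mothers (F1OVA), each made from about 3000 sorted cells by CATCH-seq, a carrier-assisted native ChIP-seq in which chromatin is cut with MNase. Control mothers were sensitised with PBS and alum and given PBS intranasally between day 4 and day 17 of gestation. Asthmatic mothers received ovalbumin (OVA), 100 µg with alum at each sensitisation and 500 µg intranasally on the same gestation days. By the study's methods the mice were wild-type C57BL/6J of both sexes, the offspring of both groups carried no other stated allele or agent, and the data came from 1 experiment with 1 pregnant dam per group, so each library stands for the offspring of a single mother. The number of offspring behind each library is not given in the sources used here. No group has a replicate, so a difference between the lists cannot be told apart from a difference between the libraries or between the 2 mothers, and no test between the groups was made.

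H3K4me3, trimethylation of lysine 4 on histone H3, is laid down around the starts of genes that are transcribed or poised, and it is most frequent where the promoter is rich in CG dinucleotides (CpG). Innate lymphoid cells arise from progenitors shared with T and NK cells. GATA3 and RORα direct the ILC2 branch, T-bet and Eomes the ILC1 and NK branches, and the aryl hydrocarbon receptor acts in the ILC3 branch, while PAX5 and EBF1 commit cells to the B lineage, PU.1 and C/EBP factors to the myeloid lineage, and TCF-1 and LEF-1 act in T cell development.

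A separate peak list was deposited for each library, with 42126 peaks for F1PBS and 51610 for F1OVA. The reporting summary of the study states that no peaks were called on its ChIP-seq data, so how these lists, and with them every fold, q and rank given here, were made is not known from the sources used here. Each peak carries the deposited fold of its summit signal over the caller's background and a −log10 q, and the smallest −log10 q was 2.02 and 2.01. A signal below that threshold is not listed, so "no peak" means no listed peak. Folds and q are not scaled between the libraries and were read as ranks within a list. The number of fragments at a summit was solved from the fold and the −log10 p under a Poisson model, on the assumption that no input served as a control. The protocol set aside some chromatin for input sequencing, and whether it entered the lists is not stated. At the peaks near protein-coding starts (start peaks), the solved summit held 9 fragments or more with a median of 24 in F1PBS, and 8 or more with a median of 16 in F1OVA. Total reads per library cannot be read from a peak list.

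In F1PBS, 5 of the 9 genes had a start peak (Eomes, Ahr, Cebpa, Cebpb and Lef1), beside 51.0% of all protein-coding genes (exact Clopper-Pearson 95% interval 50.4 to 51.7%, counting error only). F1OVA held such a peak for 3 of the 9 (Ahr, Cebpb and Lef1), beside 42.0% (41.4 to 42.7%). These counts lie near the background, so the number of marked genes alone does not set the 9 apart. No start of Tbx21, Pax5, Ebf1 or Spi1 held a peak in either list, as for 48.2% of coding genes. A start peak in both lists was found for 3 of the 9, beside 41.3% of coding genes, in F1PBS alone for Eomes and Cebpa, beside 9.72%, and in F1OVA alone for none, beside 0.711%. Counting gene bodies as well added Ebf1 in each list, which gave 6 genes beside 58.2% in F1PBS and 4 beside 51.9% in F1OVA.

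**Figure D1:**
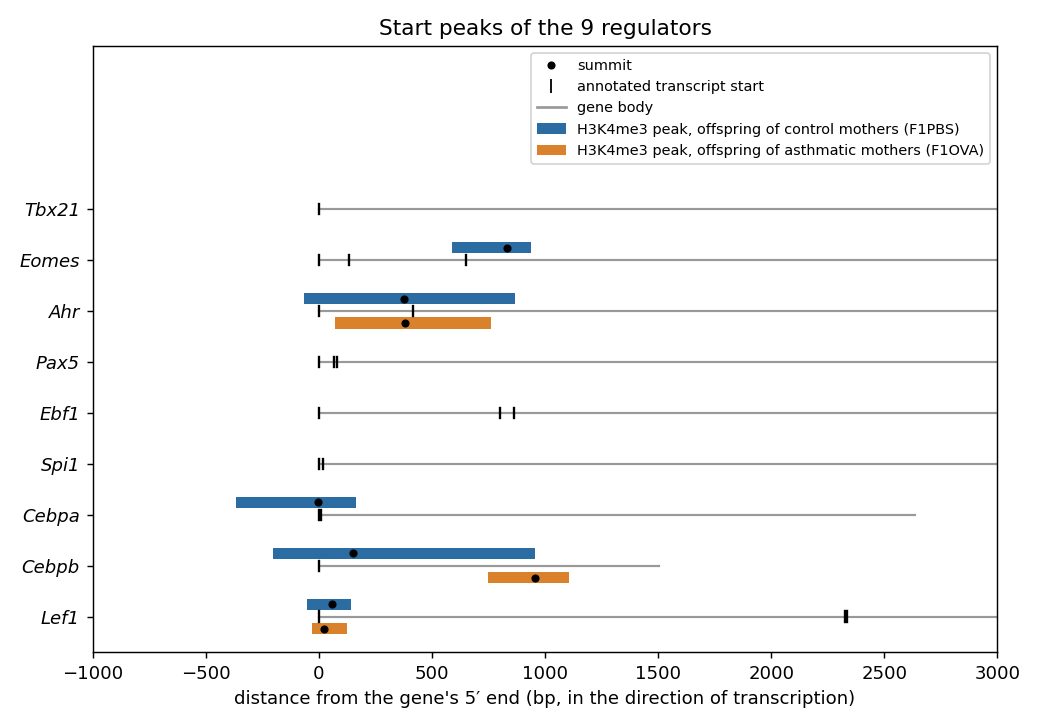
Positions of the start peaks of the 9 genes, as distance in bp from the 5′ end of each gene in the direction of transcription. Bars are peaks of F1PBS (blue, above the gene line) and of F1OVA (orange, below it), dots are summits and ticks annotated transcript starts. Tbx21, Pax5, Ebf1 and Spi1 carry no bar, Eomes and Cebpa a blue bar alone, and the orange Cebpb bar begins 747 bp downstream of the start.

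The 250 bases upstream of the annotated 5′ end of 5 genes are printed 5′ to 3′ on the strand of the gene, from the RefSeq copy of GRCm38.p6, with every CG in capitals. They were chosen to show the range of CG content upstream of genes with a start peak in both lists (Ahr and Cebpb), in the F1PBS list alone (Cebpa) or in neither (Tbx21 and Spi1). The F1PBS peak of Cebpa covers all of its printed bases, while the F1OVA peaks of Ahr and Cebpb begin 70 and 747 bp downstream of the 5′ end, outside them.
Ahr, chr12:35535039-35535288, minus strand, 12 CG: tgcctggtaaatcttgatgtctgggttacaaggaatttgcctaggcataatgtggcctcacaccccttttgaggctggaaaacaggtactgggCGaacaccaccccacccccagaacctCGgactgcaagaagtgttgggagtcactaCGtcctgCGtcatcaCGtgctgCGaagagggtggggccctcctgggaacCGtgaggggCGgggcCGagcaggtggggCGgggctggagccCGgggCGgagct
Cebpb, chr2:167688665-167688914, plus strand, 41 CG: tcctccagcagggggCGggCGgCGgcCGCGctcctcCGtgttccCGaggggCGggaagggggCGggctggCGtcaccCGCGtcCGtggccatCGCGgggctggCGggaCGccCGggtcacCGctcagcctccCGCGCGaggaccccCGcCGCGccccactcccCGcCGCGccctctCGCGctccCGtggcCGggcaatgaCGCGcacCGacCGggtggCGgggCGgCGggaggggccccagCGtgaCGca
Cebpa, chr7:35119043-35119292, plus strand, 22 CG: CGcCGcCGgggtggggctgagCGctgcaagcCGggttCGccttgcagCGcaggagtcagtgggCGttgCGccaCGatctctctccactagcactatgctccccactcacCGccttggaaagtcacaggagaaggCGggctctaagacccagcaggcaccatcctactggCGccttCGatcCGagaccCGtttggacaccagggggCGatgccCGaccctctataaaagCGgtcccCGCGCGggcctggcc
Tbx21, chr11:97115332-97115581, minus strand, 16 CG: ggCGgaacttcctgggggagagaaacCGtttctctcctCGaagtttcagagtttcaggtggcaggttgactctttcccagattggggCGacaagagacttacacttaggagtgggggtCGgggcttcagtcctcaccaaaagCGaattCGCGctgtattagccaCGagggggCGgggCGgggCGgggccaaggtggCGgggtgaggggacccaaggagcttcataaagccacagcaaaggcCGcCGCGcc
Spi1, chr2:91082140-91082389, plus strand, 3 CG: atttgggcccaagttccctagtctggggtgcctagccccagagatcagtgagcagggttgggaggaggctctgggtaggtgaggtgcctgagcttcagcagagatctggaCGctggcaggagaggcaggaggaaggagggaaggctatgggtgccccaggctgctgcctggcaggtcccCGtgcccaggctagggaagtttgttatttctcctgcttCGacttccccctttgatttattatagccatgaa
Cebpb held the most CG of the 5 upstream of its 5′ end and Spi1 the fewest.

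Promoter composition was measured over 300 bp, from 250 bp upstream to 50 bp downstream of the 5′ end, as the number of CG over the number expected from the C and G content. Over all protein-coding genes, the share with a start peak rose from 10.3% to 88.2% between the lowest and the highest of 5 equal groups by this ratio in F1PBS, and from 8.14% to 77.3% in F1OVA. Cebpb had the most CpG-rich promoter of the 9, with 50 CG and a ratio of 1.03, and 0.953% of coding promoters held as many CG. Cebpa followed with 29 CG and a ratio of 0.853, Lef1 with 30 and 0.816, Pax5 with 8 and 0.779, Tbx21 with 21 and 0.754, and Ahr with 23 and 0.737. Eomes had a ratio of 0.549, Ebf1 0.515 and Spi1, with 4 CG, 0.166. These ratios are those of the 5′ end, and other annotated starts of the same gene differ. At the starts nearest to their summits, Ahr had 44 CG and a ratio of 0.998, and Eomes 29 CG and 0.82, both above the 0.754 of Tbx21 and the 0.779 of the 5′ end of Pax5. Internal starts of unmarked genes also reached such ratios, with 27 CG and 0.852 at Pax5, but only 9 CG at the ratio of 0.959 at Ebf1. Of 2352 other genes whose ratio was within 0.05 of that of Tbx21, 20.1% had a start peak in neither list, and of 2340 genes like Pax5, 18.3%. Among 1540 genes like Ebf1 the share was 45.6%, and among 2474 genes like Spi1 it was 83.6%. Of the 4 unmarked genes, Spi1 thus had the ratio at its 5′ end that was most often unmarked, and Pax5 and Tbx21 the least. The match was on the ratio alone, not on the number of CG, the C and G content or repeats. Pax5 reached its ratio with 8 CG, against 21 at Tbx21, in a window with less C and G and more repeat-masked bases. How often promoters like that of Pax5 in these respects were marked was not tested.

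**Figure D2:**
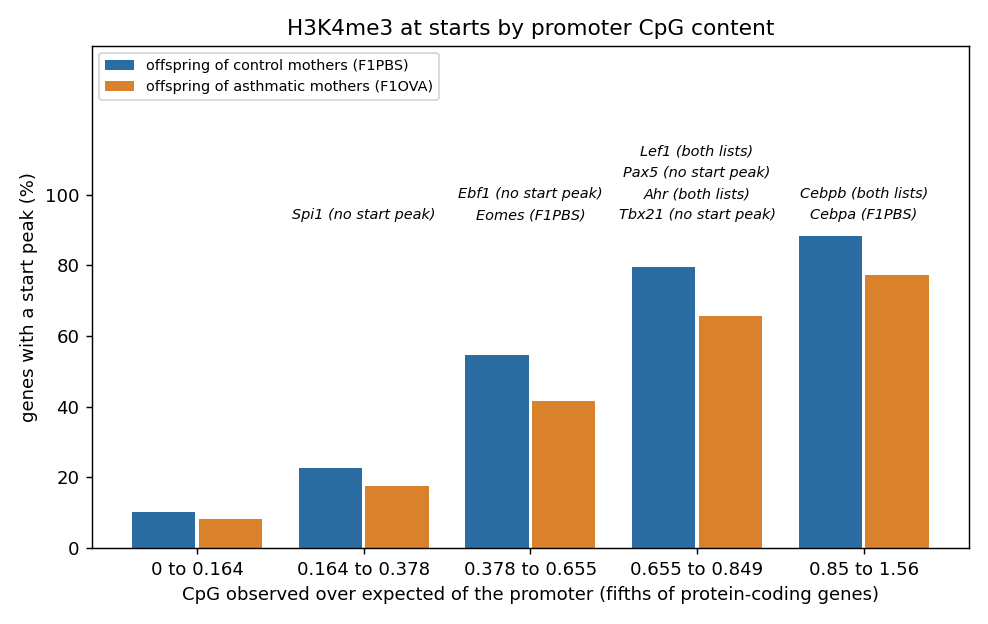
Share of protein-coding genes with a start peak (y axis, %) in 5 equal groups of the promoter's CpG observed over expected (x axis), for F1PBS (blue) and F1OVA (orange), with the 9 genes written over their group. The share rises with the ratio in both lists, and the group below the highest holds Ahr and Lef1 with a peak in both lists beside Tbx21 and Pax5 without one.

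Tbx21 encodes T-bet, which drives the type 1 programme of ILC1s, NK cells and Th1 cells. The gene (ENSMUSG00000001444.2, chr11:97098071-97115331, minus strand) has 1 annotated start and held no peak in either list. The nearest peak lay 35601 bp from the start in F1PBS, within 1000 bp of a start of Tbkbp1, and 64203 bp from it in F1OVA. Within 100 kb of the gene, 8 and 4 peaks were listed, so the surroundings of Tbx21 were not free of the mark.

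Eomes, the T-box factor of NK cells and of memory CD8 T cells (ENSMUSG00000032446.14, chr9:118478212-118486132, plus strand), carried a single weak peak, in F1PBS alone. It ran over 350 bp at chr9:118478801-118479150, with −log10 q 4.53 and fold 4.54, and its summit held 12 solved fragments over a background of 1.86. The summit lay in exon 1 of an annotated transcript, 831 bp downstream of the 5′ end and 182 bp downstream of the most internal of the 3 annotated starts. At that internal start the 300 bp window held 29 CG with a ratio of 0.82, against 9 CG and 0.549 at the 5′ end. The Eomes peak ranked at percentile 3.57 of start peaks of its list by −log10 q. Of 506 start peaks of that list with a −log10 q within 0.5 of it, 78.9% overlapped no peak of F1OVA. The nearest F1OVA peak to a start of Eomes lay 23905 bp away.

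The aryl hydrocarbon receptor, encoded by Ahr, is a ligand-activated transcription factor that senses dietary, microbial and environmental compounds and is needed to maintain ILC3s. By −log10 q it carried the strongest mark of the 9 genes in both lists. The gene (ENSMUSG00000019256.17, chr12:35497974-35535038, minus strand) had a peak of 935 bp at chr12:35534171-35535105 in F1PBS, with a fold of 7.46, a −log10 q of 16.0 and 30 solved fragments at the summit over a background of 3.15. In F1OVA the peak spanned 692 bp at chr12:35534277-35534968, wholly inside the first, with a fold of 7.62, a −log10 q of 12.1 and 21 fragments over 1.89. The summits lay 376 bp and 380 bp downstream of the 5′ end, in exon 1, and so within 4 bp of each other. By −log10 q, the Ahr peak ranked at percentile 73.5 of start peaks in F1PBS and at percentile 89.1 in F1OVA, the only one of the 9 genes above the middle of either list by that measure. By solved fragments it ranked at percentiles 80.1 and 89.8, and Cebpb in F1OVA also lay above the middle, at 56.0. Peaks joined over gaps of up to 1000 bp left its width at 935 and 692 bp, percentiles 74.8 and 79.5 of marked coding genes, whose median was 663 and 409 bp. Both peaks cover the start of the long noncoding gene Gm48236 on the opposite strand, 617 bp inside Ahr, and H3K4me3 does not tell which start it belongs to. The third annotated start, of a transcript with a retained intron 8259 bp downstream, had no peak within 1000 bp.

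Genes that work with Ahr were read from a list of 15 ILC3 and AHR pathway genes, of which 5 had a start peak in F1PBS and 4 in F1OVA (33.3% and 26.7%, beside 51.0% and 42.0% of all coding genes). Among those marked in both lists were Arnt, the dimerisation partner of AHR, Tiparp, a target gene, and Ltb, a lymphotoxin subunit. Arnt had a −log10 q of 14.3 in F1PBS and 11.0 in F1OVA, percentiles 64.0 and 83.3 of start peaks. Lta was marked in F1PBS alone. Il23r, Il22, Il17a, Il17f and Il1r1 had no start peak in either list, nor did the AHR target genes Ahrr, Cyp1a1, Cyp1b1 and Nqo1.

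Pax5, the factor that commits and maintains B cells (ENSMUSG00000014030.15, chr4:44524757-44710487, minus strand), held no peak in either list at any of its 7 annotated starts or along its 185731 bp. The nearest peaks lay 11187 bp and 11218 bp upstream of the gene, with a −log10 q of 8.84 and 13.6. The starts differ in composition. The upstream group of 3 had 6 to 8 CG in 300 bp and ratios of 0.692 to 0.779, while the downstream pair at 44704006 and 44703413 had 26 and 27 CG and ratios of 0.81 and 0.852. The other starts had 1 and 5 CG, and no start of either composition was marked.

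Ebf1, the early B cell factor that acts upstream of Pax5 (ENSMUSG00000057098.14, chr11:44617317-45008091, plus strand), had no peak within 1000 bp of its 5 annotated starts, and the nearest lay 32453 bp and 32319 bp from a start. Inside the gene each list held 1 peak, at chr11:44857226-44858045 in F1PBS and at chr11:44856931-44858027 in F1OVA, and both summits lay in an intron, 240339 and 240621 bp from the 5′ end. Their −log10 q was 12.9 and 11.4, percentiles 80.0 and 83.3 of all peaks of the lists, and their summits held 25 and 22 fragments. All of their bases were masked as repeats in the reference. The 75 bases around the summit, the read length of the study, occurred 2797 times on the assembled chromosomes in F1PBS and 5165 times in F1OVA. A single read with that sequence has no unique place in the genome, and whether its mate would place it was not tested.

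The printed sequences show the summit of the Ebf1 peak beside that of a Lef1 intron peak, both from F1OVA, since they share a run of 45 bases, in capitals, that occurs 9859 times on the assembled chromosomes.
Ebf1, chr11:44857901-44857975, plus strand: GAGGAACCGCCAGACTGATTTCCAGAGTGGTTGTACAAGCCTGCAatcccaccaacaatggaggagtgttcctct
Lef1, chr3:131210553-131210627, plus strand: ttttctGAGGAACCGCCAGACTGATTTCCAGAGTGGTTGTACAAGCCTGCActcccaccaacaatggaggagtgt
Unlike the promoter sequences, these capitals mark the shared run and not CG.

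Of 15 listed B cell genes, among them the recombinase gene Rag1, 14 had no start peak in either list, beside 48.2% of all coding genes. Vpreb1, named here after its value was seen, encodes a part of the surrogate light chain and had a start peak in both lists, with a −log10 q of 17.8 and 9.59. In both lists that peak also covers an annotated start of the neighbouring gene Top3b, a topoisomerase gene.

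Spi1 encodes PU.1, which directs myeloid development and is also used early in the B lineage (ENSMUSG00000002111.8, chr2:91082390-91115756, plus strand). It held no peak in either list at its 4 annotated starts or in its body. The nearest peaks, 12092 bp and 12209 bp upstream of the gene, lay within 1000 bp of a start of the neighbouring zinc transporter gene Slc39a13, with a −log10 q of 12.6 and 7.05. The internal protein-coding start at 91096096 had 11 CG and a ratio of 0.771, so Spi1 too has a start with a higher ratio than its 5′ end, and it was equally unmarked.

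Cebpa encodes C/EBPα, which drives granulocyte and monocyte progenitors (ENSMUSG00000034957.10, chr7:35119293-35121928, plus strand). In F1PBS a peak of 533 bp at chr7:35118926-35119458 covered both annotated starts, with its summit 2 bp upstream of the 5′ end, a fold of 4.74, a −log10 q of 5.92 and 16 fragments over a background of 2.58. It ranked at percentile 11.3 of start peaks. The nearest F1OVA peak lay 40582 bp from a start. Of 764 start peaks with a −log10 q within 0.5 of it in the F1PBS list, 69.8% (exact 95% interval 66.4 to 73.0%) overlapped no peak of the other list, so most start peaks of this strength in the control list lacked a counterpart. A start of the antisense gene Gm45091 lay 147 bp from the peak.

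Cebpb encodes C/EBPβ, a factor of macrophages and of stress-induced granulocyte production that is also induced by inflammatory signals in many other cells (ENSMUSG00000056501.3, chr2:167688915-167690418, plus strand). The intronless gene was marked in both lists, but at different places. In F1PBS the peak spanned 1157 bp at chr2:167688712-167689868, with its summit 150 bp downstream of the start, a fold of 4.43, a −log10 q of 6.21 and 19 fragments over 3.51. In F1OVA the peak spanned 361 bp at chr2:167689662-167690022, with its summit 955 bp downstream of the start, a fold of 5.19, a −log10 q of 6.51 and 16 fragments over 2.28. The 2 peaks overlapped by 207 bp, which is 17.9% of the first and 57.3% of the second, and so were not shared when 50% of both was required. The control peak was wide for its rank, at percentile 98.2 of start peaks by width and 14.2 by −log10 q. Both cover a start of Tmem189, a protein-coding gene on the opposite strand, 907 bp downstream of the Cebpb start, and the F1OVA peak lies 747 bp from the Cebpb start. At a distance of 500 bp it was no longer counted at Cebpb.

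Of 20 listed myeloid genes, 4 had a start peak in F1PBS (Csf2ra, Cd14, Fcgr3 and Irf8) and 0 in F1OVA, beside 51.0% and 42.0% of all coding genes and 9.72% marked in F1PBS alone. Irf8, a factor of monocytes and dendritic cells, was the highest of the 4, with a −log10 q of 8.80 and percentile 29.3 of start peaks, and the others lay between percentiles 6.93 and 15.7. Of F1PBS start peaks about as strong as those of Eomes, Lef1, Cebpa and Cebpb, 66.3 to 78.9% overlapped no F1OVA peak. In the other direction, 1.24 to 11.5% of F1OVA start peaks about as strong as those of Ahr, Cebpb and Lef1 overlapped no F1PBS peak. Why the 4 myeloid genes lacked an F1OVA peak was not tested. The Irf8 peak was stronger than those of Eomes, Lef1, Cebpa and Cebpb, and the share at its strength was not computed. Csf1r, the receptor gene of macrophage growth factor, had none in either list.

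Lef1 encodes the partner of β-catenin that acts with TCF-1 in T cell development (ENSMUSG00000027985.14, chr3:131110471-131224356, plus strand). Both lists held a peak on its 5′ end, and both were at the narrow limit of the lists. The peak spanned 192 bp at chr3:131110421-131110612 in F1PBS, with a fold of 3.94, a −log10 q of 5.02 and 18 fragments over 3.82. It spanned 156 bp at chr3:131110441-131110596 in F1OVA, with a fold of 3.79, a −log10 q of 3.15 and 11 fragments over 2.17. The smallest peak of each list was 190 bp and 156 bp. The second lay inside the first, with summits 58 bp and 24 bp downstream of the start. By −log10 q they ranked at percentiles 6.18 and 1.37 of start peaks, and by joined width at percentiles 1.07 and 2.99 of marked coding genes. Only 1 of the 5 annotated starts was within 1000 bp of a peak, and the others, 2326 to 3385 bp downstream, had at most 7 CG in 300 bp.

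Inside Lef1, each list held 2 further peaks about 99 to 100 kb from the 5′ end, in an intron, and each of them overlapped a peak of the other list. Their −log10 q was 3.78 and 10.0 in F1PBS and 3.56 and 6.66 in F1OVA, so the stronger of each pair ranked above the start peak of Lef1 itself. All of their bases were repeat-masked, and the 75 bases at their summits occurred 7 to 3087 times on the assembled chromosomes. In contrast, each of the 8 start peaks of the 9 genes had a summit sequence that occurred once, and at most 20.3% of its bases were masked. Among coding genes of at least 100 kb, which include Pax5, Ebf1 and Lef1, 63.5% held a peak in the body away from starts in F1PBS and 70.2% in F1OVA. Such peaks in Ebf1 and Lef1 are therefore common for genes of this length, and Pax5 had none.

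**Figure D3:**
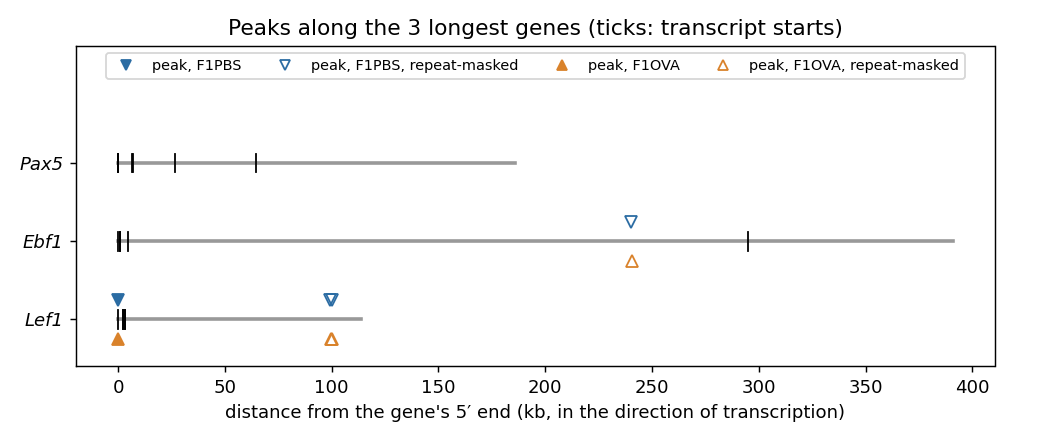
Peaks along Pax5, Ebf1 and Lef1, as distance in kb from the 5′ end in the direction of transcription, with ticks at annotated starts. Triangles are peak summits of F1PBS (blue, above) and of F1OVA (orange, below), open where at least 50% of the peak is repeat-masked. The 3 internal peaks of each list are open and the Lef1 start peaks filled.

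Of 20 listed T cell genes, 7 had a start peak in F1PBS and 6 in F1OVA (35.0% and 30.0%, beside 51.0% and 42.0% of all coding genes). Those marked in both lists were 5, Cd247, Lat, Satb1, Bach2 and Ctnnb1, beside 41.3% of all coding genes. Ctnnb1, which encodes β-catenin, was at percentiles 81.1 and 60.8 of start peaks. Cd3e, Cd3g, Cd3d, Cd4 and Cd8a had none. Foxp3, named after its value was seen and the factor of regulatory T cells, had a start peak in F1OVA alone, with a −log10 q of 4.72, 58 bp from its start, 102 bp from that of the antisense gene Flicr and 280 bp from a start of Ppp1r3f. Of 14 type 1 and NK genes, Il2rb, Stat4 and Zeb2 were marked in F1PBS and Stat4 and Zeb2 in F1OVA (21.4% and 14.3%, beside the same 51.0% and 42.0%), while Ifng and the killing genes Prf1, Gzma and Gzmb were not.

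For comparison, 14 ILC2 regulators were read in the same way. All 14 had a start peak in F1PBS and 10 in F1OVA, against 5 and 3 of the 9 regulators of other lineages. Of all coding genes, 51.0% and 42.0% had one. The lists were chosen with earlier results of these data known, so these counts are description only. Gata3, Tcf7, Gfi1 and Nfil3 were marked in F1PBS alone, beside 9.72% of all coding genes. Their highest peaks ranked at percentiles 10.1, 17.8, 6.57 and 75.3 of start peaks. The Gata3 peak had a −log10 q of 5.65, and a start of 9230102O04Rik lay within 1000 bp of it. The difference between the 2 groups of genes was not tested. When the 5′ end of each gene alone was read, 8 and 4 of the 14 ILC2 regulators (57.1% and 28.6%) and 5 and 3 of the 9 genes (55.6% and 33.3%) were marked, beside 47.2% and 38.4% of all coding genes. With so few genes in each group, these shares are read as near the background in both lists. The start peaks of the marked ILC2 regulators had a median percentile of 41.1 in F1PBS (range 6.57 to 75.3) and of 35.6 in F1OVA (5.59 to 88.3). Those of the 9 genes had medians of 11.3 (3.57 to 73.5, 5 genes) and 36.7 (1.37 to 89.1, 3 genes). Ahr thus ranked above 13 of the 14 ILC2 regulators in F1PBS and above all 10 that were marked in F1OVA, while Eomes and Lef1 ranked below all 14 in F1PBS. The peak of Tcf7, which encodes TCF-1, had a −log10 q of 7.01, percentile 17.8, beside 6.18 for its relative Lef1.

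**Figure D4:**
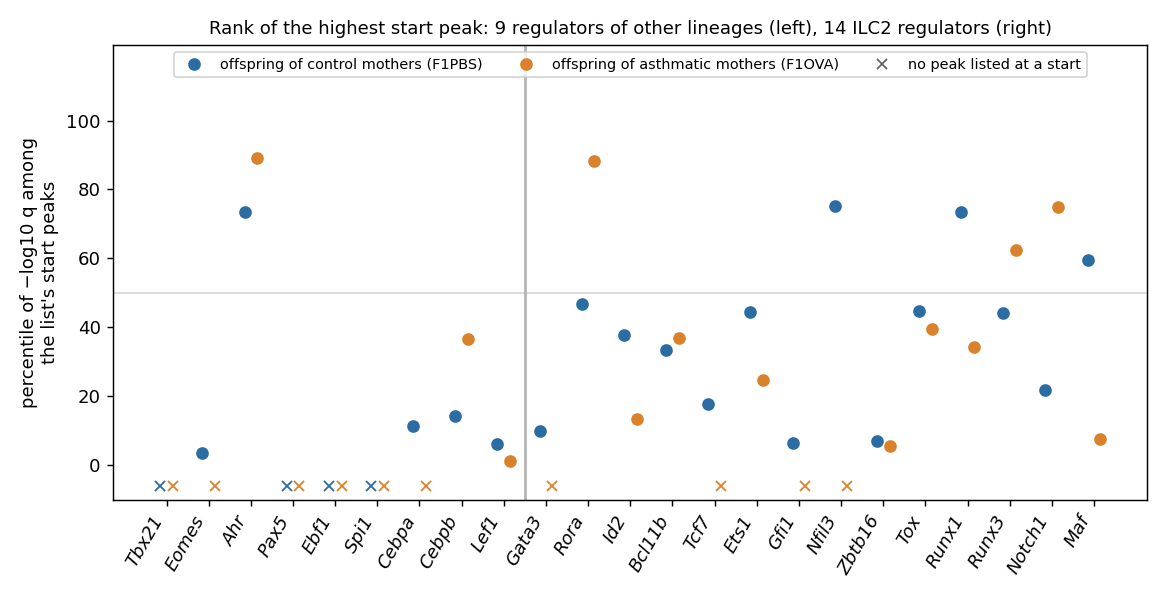
Percentile of the −log10 q of the highest start peak of each gene among all start peaks of its list (y axis), for the 9 regulators (left of the line) and the 14 ILC2 regulators (right), with crosses where no start peak was listed. By this measure Ahr is the only one of the 9 above percentile 50, at 73.5 and 89.1, and the other marked genes lie between 1.37 and 36.7.

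The sort kept CD45+ lineage- CD90.2+ ST2+ cells, with antibodies to T, B, myeloid and erythroid cells in the lineage mix. Markers were read to check it. None of 4 B cell, 6 macrophage and myeloid, 5 T cell and 4 NK cell markers had a start peak in either list, while 7 of 9 ILC2 markers had one in F1PBS and 4 in F1OVA. These are 77.8% and 44.4%, beside 51.0% and 42.0% of all coding genes, so the F1OVA share lies near the background. Il1rl1, which encodes ST2, Rora, Areg and Thy1 were marked in both lists, Gata3, Il7r and Il5 in F1PBS alone, and Il13 and Icos in neither. Of all coding genes, 41.3% were marked in both lists, 9.72% in F1PBS alone and 48.2% in neither. These markers are fewer than the lineage lists, in which other genes were marked. The T cell genes Cd247, Lat, Satb1, Bach2 and Ctnnb1, the type 1 and NK genes Stat4 and Zeb2 and the B cell gene Vpreb1 had start peaks in both lists, with Lat at percentiles 78.5 and 66.6. The myeloid genes Csf2ra, Cd14, Fcgr3 and Irf8 were marked, like Cebpa, in F1PBS alone. The part of other cells in these peaks was not tested.

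**Figure D5:**
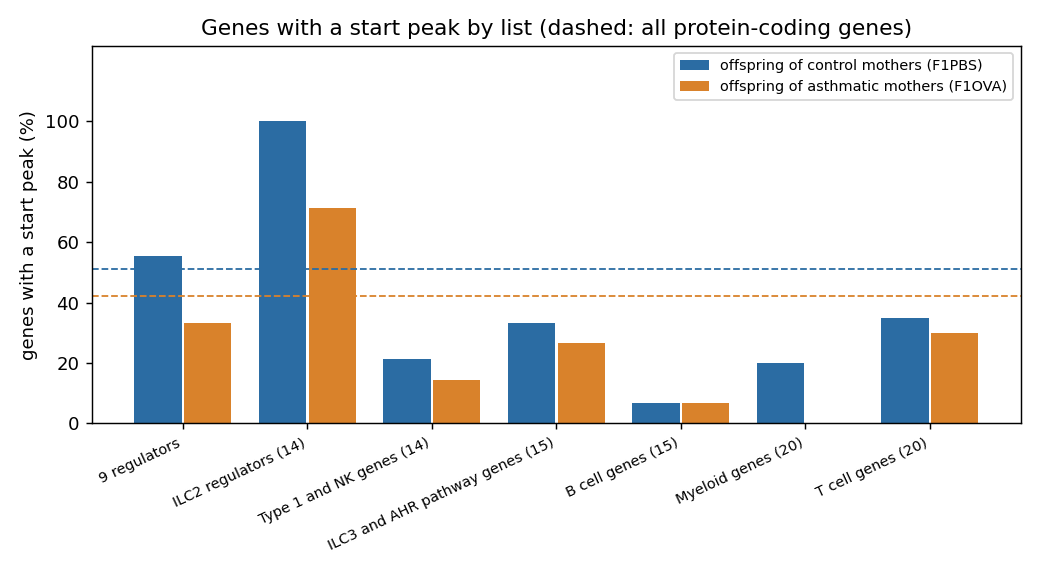
Share of genes with a start peak (y axis, %) in the 9 regulators and in 6 gene lists, with the number of genes in brackets, for F1PBS (blue) and F1OVA (orange). Dashed lines are all protein-coding genes, at 51.0% and 42.0%. ILC2 regulators lie at 100% and 71.4%, and each of the 5 lists of other lineages lies below the dashed line of its colour.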

How the data were processed

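H3K4me3 ChIP-seq of sorted lung ILC2s was read for 1 library of F1PBS and 1 of F1OVA offspring. After adapter trimming, alignment to GRCm38 (Bowtie2) and duplicate removal, the authors deposited 1 peak list per library. Some chromatin was set aside for input sequencing, but the caller, its threshold and whether that input was used are not given in the sources used here, and by the study's reporting summary its ChIP-seq data went through no peak calling. Per peak, the deposited lists give a score, a ratio of summit signal to background (fold), a −log10 p and a −log10 q (p-value and q-value), read here as deposited, within each list.

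Peaks were placed on GENCODE vM21 starts and genes, with 1-based positions. A start peak lay within 1000 bp of any annotated start, shared peaks overlapped by at least 1 bp, and gaps of up to 1000 bp were bridged to give joined widths. Repeat masking, CG counts and copies of 75-base summit sequences came from the RefSeq GRCm38.p6 sequence. The code for solved fragments and start calls was checked by recovering values planted in simulated data. The simulated fragments came from the same Poisson model, so the unknown caller and the use of input were not tested. The members and the gene lists were chosen with earlier results of these data known. All 9 genes are named, and of the lists 10 genes set by rule, beside the marked genes and a few named with their values seen. Some of these genes are counted in their lists but not reported here by name. Alternatives are given in the closing section. With 1 library per group, no p-value between groups is given. Scripts ran under Python 3.11.15 (scipy 1.17.1, pandas 2.3.3, numpy 2.4.6; plots by matplotlib 3.10.9).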

Additional observations from a re-analysis of the deposited data

How the results depend on the processing

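No paired analysis was possible because each group has 1 library and no result comes from a test. Of 92 values under an alternative, 75 were within 1.5 times of the value reported. With the 10000 peaks of highest −log10 p in each list, Ahr alone kept a start peak, so members with one fell to 1 in F1PBS and 1 in F1OVA, with 1 shared, and members with any peak to 2 and 2, Ahr and Ebf1. The same limit gave 7085 and 2050 coding genes, 10 and 1 genes of the lineage lists (20 and 13 as reported) and 3 and 1 ILC2 regulators with a start peak. The 5′ end of the gene alone gave 8 and 4 ILC2 regulators. Peaks inside members away from starts fell from 3 to 0 in both lists when peaks had to be under 50% repeat-masked, and likewise to 0 with a single-copy summit. A −log10 q of at least 5 removed Eomes in F1PBS and Lef1 in F1OVA. Of the 7 alternatives run on starts, only the distance of 2000 bp can add a start peak. It could add none at Tbx21, Pax5, Ebf1 or Spi1, whose nearest peaks lay 11187 bp or more from a start. The alternatives therefore say nothing on how firm the absence of a peak at these genes is. The effect of depth on the calls was not tested, and no start peak had fewer than 9 (F1PBS) or 8 (F1OVA) solved fragments at its summit.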
